A study of Mus musculus with 6 samples.

Results

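The H3K4me3 landscape of MIN6 cells was described from 15573 genomic regions that carried an H3K4me3 peak in both replicate libraries. A region was the union of peaks that shared at least 1 bp between the 2 lists, with a peak from each. These regions took in 15651 of the 16020 peaks of replicate 1 and 15738 of the 16904 peaks of replicate 2, out of 108684 peaks in the 4 lists of the whole series. A gene was called marked when a region lay within 1 kb of either end of its RefSeq span in the mouse build GRCm38, which was the case for 12213 of 21887 protein-coding genes.

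The series profiled MIN6, a mouse insulinoma line that secretes insulin and is used as a model of the pancreatic beta cell. It held 3 groups of 2 replicates, all from MIN6 cells with no treatment named in the labels beyond the antibody: IgG as negative control, H3K4me3 as positive control, and endogenous MafA, a transcription factor that activates the insulin genes. CUT&RUN was used, in which an antibody on permeabilised cells brings a nuclease to its target and the released DNA is sequenced. Each sample started from 500000 cells, and sequencing was aimed at 10 to 15 M reads per sample, as pairs of 150 bp. The labels name a single tumour-derived line and do not say whether replicates were separate cultures, so their spread may be technical. Only the H3K4me3 lists are described here, and no IgG list was used.

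Trimethylation of lysine 4 on histone H3 marks the promoters of genes that are active or poised for activity. It is laid down by SET1 and MLL enzymes, whose complexes reach CpG islands partly through CFP1, a protein that reads unmethylated CpG. Most marked promoters carry a domain of a few nucleosomes on either side of the transcription start. Wider domains are known at genes that define a cell type. In beta cells, such genes include the transcription factors of the islet lineage and the genes of insulin storage and release. The mark at a gene end is not a measure of its transcript.

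The 5 promoters below show the sequence contexts that the results turn on, with every CG dinucleotide in capitals. Each is the 250 bases before a RefSeq start site in GRCm38, on the plus strand. Pcsk2 encodes the prohormone convertase PC2, and Pax6 is a homeodomain factor of islet and eye. Iapp encodes amylin, the peptide released with insulin. Albumin (Alb) is the main plasma protein of the liver, and Twist1 is a mesenchymal transcription factor.
Pcsk2, chr2:143545883-143546132, marked: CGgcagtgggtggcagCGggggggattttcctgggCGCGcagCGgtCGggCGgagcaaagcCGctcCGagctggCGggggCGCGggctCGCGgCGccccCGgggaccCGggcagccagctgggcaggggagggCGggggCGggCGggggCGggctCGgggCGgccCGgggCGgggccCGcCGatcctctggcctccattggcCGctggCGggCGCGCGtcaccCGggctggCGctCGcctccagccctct
Pax6, chr2:105668646-105668895, marked: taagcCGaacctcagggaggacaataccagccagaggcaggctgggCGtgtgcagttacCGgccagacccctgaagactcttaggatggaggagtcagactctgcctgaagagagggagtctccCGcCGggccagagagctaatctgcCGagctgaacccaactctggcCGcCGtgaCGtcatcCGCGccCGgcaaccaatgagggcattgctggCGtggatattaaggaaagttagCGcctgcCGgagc
Iapp, chr6:142298175-142298424, marked: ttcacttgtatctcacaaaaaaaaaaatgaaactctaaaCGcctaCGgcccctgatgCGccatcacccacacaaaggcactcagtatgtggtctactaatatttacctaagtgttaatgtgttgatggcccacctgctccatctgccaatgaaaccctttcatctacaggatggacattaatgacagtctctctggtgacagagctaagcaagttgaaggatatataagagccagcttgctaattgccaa
Alb, chr5:90460620-90460869, unmarked: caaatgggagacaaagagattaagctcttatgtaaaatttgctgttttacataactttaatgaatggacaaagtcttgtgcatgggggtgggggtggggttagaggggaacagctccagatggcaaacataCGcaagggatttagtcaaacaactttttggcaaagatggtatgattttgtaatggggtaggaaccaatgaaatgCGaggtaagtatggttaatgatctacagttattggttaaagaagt
Twist1, chr12:33957421-33957670, unmarked: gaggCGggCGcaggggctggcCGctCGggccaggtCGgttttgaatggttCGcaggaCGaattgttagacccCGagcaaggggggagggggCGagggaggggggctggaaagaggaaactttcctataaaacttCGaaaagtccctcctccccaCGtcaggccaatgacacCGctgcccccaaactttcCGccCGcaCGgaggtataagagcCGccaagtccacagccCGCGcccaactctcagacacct
These stretches held 35 CG dinucleotides at Pcsk2, 15 at Pax6, 3 at Iapp, 2 at Alb and 18 at Twist1. The marked Iapp and the unmarked Alb were both CpG-poor, and the unmarked Twist1 held more CG dinucleotides than the marked Pax6.

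The peaks of the replicates coincided closely. Of the peaks of replicate 1, 97.7% lay in a region, as did 93.1% of those of replicate 2. The 369 and 1166 peaks left over were narrow, with median widths of 333 and 330 bp against 1741 and 1760 bp for matched peaks. They were also weak, with median fold enrichment of 3.43 and 3.74 against 15.1 and 14.2. Fold enrichment here is the authors' own value for each peak, the ratio that MACS2 gives of signal at the peak summit to its modelled background, and MACS2 was run on each library by itself. In 15341 regions (98.5%) there was exactly 1 peak from each list. Across the 15573 regions the widths of the 2 replicates had a Spearman correlation of 0.984, a description of regions that share 2 libraries. The summits of the 2 libraries lay a median of 23 bp apart. With 1 mark in 1 line and no second condition, there was no contrast to test, and the results below are counts, levels and their spread between the 2 lists.

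The regions spanned 246 to 22268 bp, with a median of 1837 bp, a 5th percentile of 511 bp and a 95th percentile of 3732 bp. Together they covered 30.3 Mb. There were 545 regions over 4000 bp, 193 over 5000 bp and 16 over 10000 bp. Wide regions tended to be strong: width and mean fold enrichment had a Spearman correlation of 0.703 across regions. Of all regions, 11919 (76.5%, 95% Wilson interval 75.9 to 77.2%) lay within 1 kb of an end of a gene of any RefSeq class. These were wider (median 2026 bp) than the 3654 regions away from gene ends (1048 bp). Their median fold enrichment was also higher, at 17.5 and 16.0 in replicates 1 and 2 against 6.78 and 7.04. Of the regions away from gene ends, 2590 overlapped a gene and 1064 lay outside genes.

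Marked protein-coding genes made up 55.8% of the 21887 tested (95% Wilson interval 55.1 to 56.5%). The list of replicate 1 alone gave 56.0% and that of replicate 2 alone gave 56.3%. At a marked gene the widest region had a median of 2175 bp, with 833 bp at the 5th and 3989 bp at the 95th percentile. The median fold enrichment of the strongest region was 18.7 in replicate 1 and 16.9 in replicate 2. Most marked genes, 11870, had a region within 500 bp of an end. The 343 genes whose nearest region lay beyond 500 bp but within 1000 bp had a median width of 1748 bp and median fold enrichments of 14.0 and 14.1. The 237 unmarked genes just outside the window, at over 1000 and up to 1500 bp, had values of 1752 bp, 15.1 and 13.9.

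RefSeq start sites were at hand for 17492 protein-coding genes, and gave a second view. A region lay within 1 kb of a start site for 57.6% of them. Both views marked 9474 genes, the end alone marked 346, the start alone 607, and 7065 were marked by neither. A gene with several start sites can be marked at an internal one that lies far from the ends of its span. Such genes are pointed out below.

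The cell type given in the labels was set beside marker genes, in lists chosen with earlier results of these data known. The comparison is therefore not an independent check. Of 22 transcription factors of beta cells, 18 were marked, and of 30 genes of insulin storage, release and glucose sensing, 23 were. Over both lists this came to 41 of 52 genes (78.8%, 95% Wilson interval 66.0 to 87.8%), beside 55.8% of all protein-coding genes. In the 12 lists for lineages other than endocrine cells of the pancreas and neurons, duct cells and glia included, 39 of 193 genes (20.2%, 15.1 to 26.4%) were marked. Also marked were 9 of 12 alpha cell genes (75%), 8 of 10 endocrine progenitor genes (80%) and 17 of 20 neuronal genes (85%). The data did not go against the label, but the marked share did not single out beta cells.

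**Figure D1:**
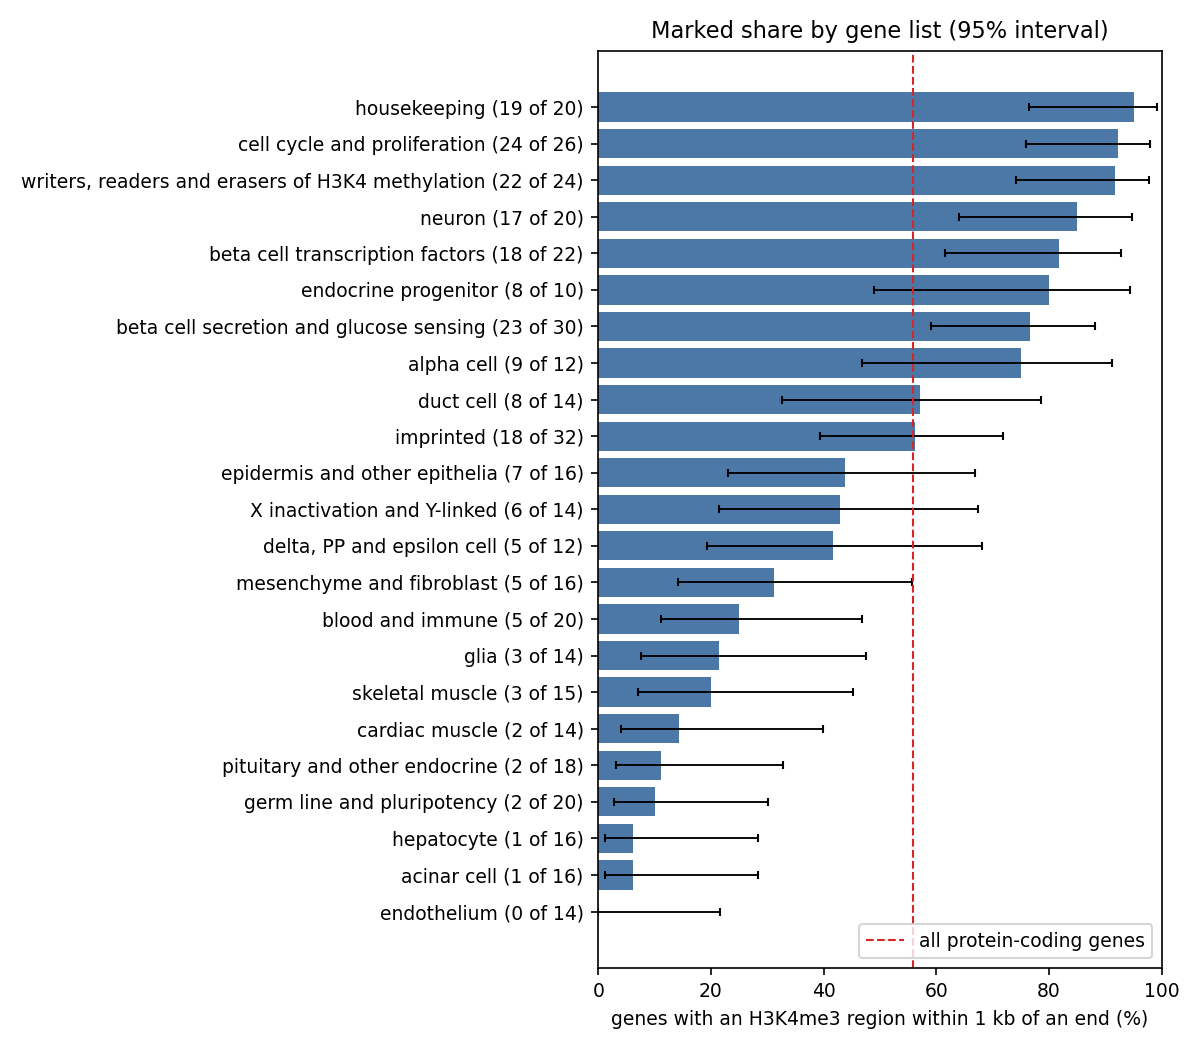
Share of each gene list with an H3K4me3 region within 1 kb of a gene end. Bars give the percentage of genes marked, whiskers the 95% Wilson interval (counting error only), and the dashed line the 55.8% of all protein-coding genes. Housekeeping genes stand at the top with 19 of 20 marked and the endothelial list at the bottom with 0 of 14.

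The beta cell transcription factors had the highest median width of the 23 lists. Pax6 had a region of 21992 bp in replicate 1 and 22140 bp in replicate 2, with fold enrichments of 28.9 and 28.1. It was the widest at any protein-coding gene, at chr2:105665843-105688110, and took in the promoter printed above. Isl1, a LIM homeodomain factor of endocrine cells and neurons, had 13587 and 13869 bp and fold enrichments of 23.0 and 20.2. Foxa2, a pioneer factor of endoderm, had 10712 and 10950 bp with 22.4 and 21.8. Pdx1, the homeodomain factor of the early pancreas and an activator of the insulin gene, had 10827 and 10880 bp with 19.6 and 16.6. At these 4 genes the widths of the 2 libraries were close, while fold enrichment was higher in replicate 1 at each.

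Nkx2-2 and Nkx6-1, homeodomain factors that keep beta cell identity, followed at 10503 and 10068 bp, and Neurod1 at 8471 bp. Mafa itself had 5106 bp with fold enrichments of 16.6 and 19.5. The highest mean fold enrichment of the list was that of Pax6, followed by Mnx1, a homeodomain factor of pancreas and motor neurons, at 32.0 and 23.6 over 4656 bp. Foxo1, a forkhead factor controlled by insulin signalling, came next at 34.1 and 20.4 over 3828 bp. Over the 18 marked factors the median width was 4398 bp against 2175 bp for all marked genes, and 10 of the 18 exceeded the 95th percentile of all marked protein-coding genes, beside 4.99% of those genes. The narrowest was Myt1, a zinc finger factor of endocrine cells and neurons, at 532 bp and fold enrichments of 3.48 and 3.54. The 4 unmarked factors were Pax4, Foxa1, Rfx3 and St18. Of these, Foxa1 and Rfx3 carried a region within 1 kb of a RefSeq start site.

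Genes of insulin storage and secretion were marked over wide regions as well. Ero1b, an oxidase of the endoplasmic reticulum that helps proinsulin to fold, had 15223 bp in replicate 1 and 14152 bp in replicate 2, with fold enrichments of 21.2 and 19. Pcsk2 had 6991 bp with 17.5 and 18.3. Chga, which encodes the granule protein chromogranin A, had 5622 bp with 23.2 and 23.4. Npy, a neuropeptide that beta cells can also make, had 5407 bp with 17.6 and 19. These 4 were the widest of the list.

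The 2 highest mean fold enrichments of this list belonged to receptors. Glp1r, the receptor of the incretin GLP-1, had 26.7 and 23.5, and Ffar1, a receptor for long-chain fatty acids, had 27.5 and 22.6. The 2 genes of the ATP-sensitive potassium channel, Kcnj11 and Abcc8, had 4716 and 3940 bp. Slc2a2, the glucose transporter GLUT2, was the narrowest of the 23 at 2162 bp, and its fold enrichment was 5.44 and 6.77. Of the 23, 22 were wider than the median of all marked genes and 11 exceeded their 95th percentile, beside 4.99% of those genes.

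The insulin genes differed from each other. Ins2 had a region of 3326 bp with fold enrichments of 9.44 and 7.84, whereas Ins1 had no peak within 1 kb of its ends in either list and none at its RefSeq start. The 2 genes are similar in part of their sequence, and how reads that fit several places were handled is not given in the sources used here. Whether this bears on the missing peak at Ins1 was not tested. Also unmarked were G6pc2, Gipr, Prlr, Ucn3, Cacna1d and Cacna1c. Ucn3 is a peptide of mature beta cells, Gipr the receptor of the incretin GIP and Prlr that of prolactin. G6pc2, a glucose-6-phosphatase of the islet, and the calcium channel genes Cacna1d and Cacna1c carried a region at a RefSeq start site.

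**Figure D2:**
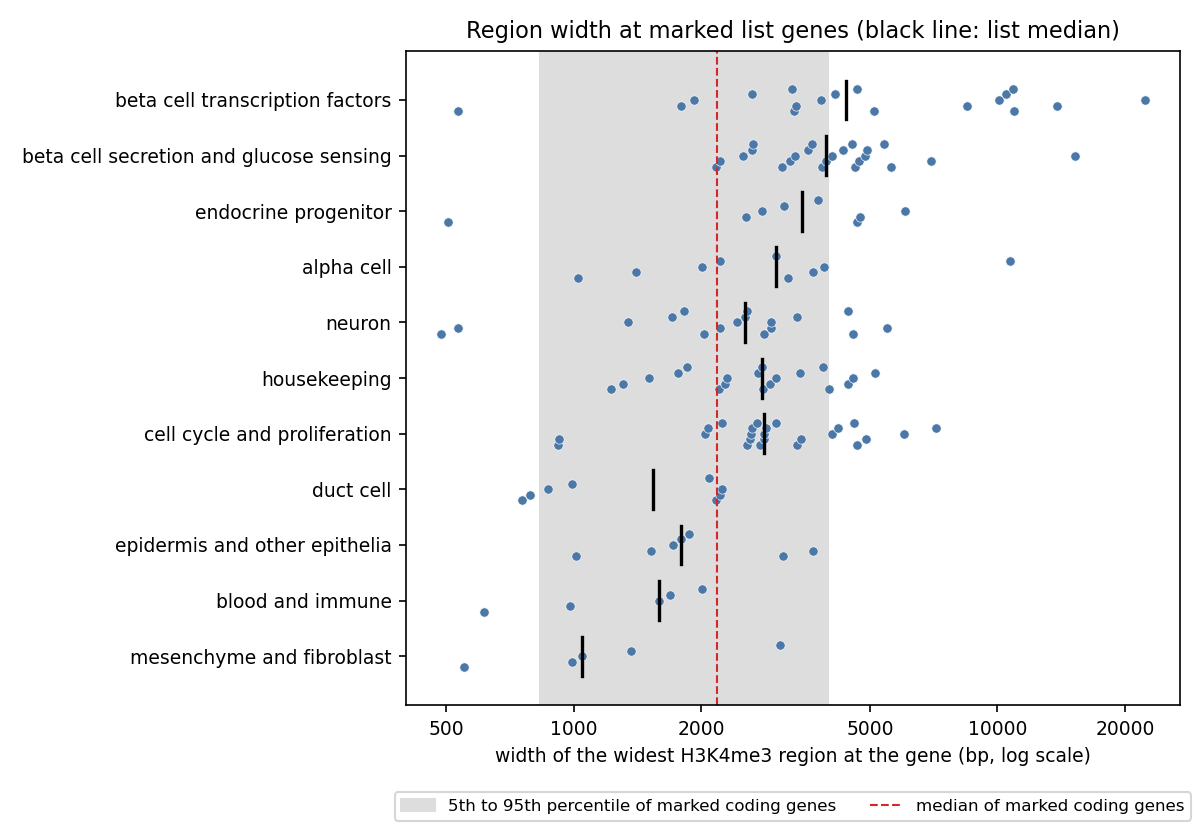
Width of the widest H3K4me3 region at each marked gene of 11 lists, on a log axis in bp. Each point is a gene, the black line the list median, the dashed line the median of all marked protein-coding genes (2175 bp) and the grey band their 5th to 95th percentile (833 to 3989 bp). Beta cell factors reach from 532 bp at Myt1 to 22268 bp at Pax6, and the mesenchymal genes lie mostly at the lower edge of the band.

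Markers of the other islet cells were marked in part, to be set beside the 55.8% of all protein-coding genes. Among 12 alpha cell genes, 9 were marked, and 4 were with the 10000 strongest peaks of each list alone. Etv1, an ETS factor, had 10698 bp with fold enrichments of 15.7 and 11.5, Slc7a2, a transporter of cationic amino acids, had 3896 bp with 29.6 and 29.2, and Slc38a5, a glutamine transporter, had 3680 bp with 31.3 and 22.3. Ttr, the thyroxine carrier transthyretin, had 3208 bp but only 6.41 and 7.43. Gcg, the glucagon gene itself, carried a narrow region of 1402 bp with 6.32 and 6.43. Pou3f4, a POU-domain factor, and Gc, which encodes the vitamin D binding protein, were among the unmarked genes.

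Of 12 genes of delta, PP and epsilon cells, 5 were marked (41.7%), beside 55.8% of all protein-coding genes. The hormone genes Sst, Ppy, Pyy and Ghrl were unmarked, as were Hhex, Crhr2 and Sstr3, the last of which had a region at a start site. The marked members were Meis2 (5577 bp), Fev (1968 bp), Ghsr (1576 bp), Rbp4 (1239 bp) and Aqp3 (699 bp). Meis2, a homeodomain factor shared by many tissues, was the widest of them, with fold enrichments of 16.8 and 18.2.

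Among 10 genes of endocrine progenitors, 8 were marked, beside 55.8% of all protein-coding genes, with a median width of 3454 bp. Onecut2 had 6038 bp, Sox4 4752 bp, Hes1 4672 bp and Gadd45a 3775 bp. Onecut2, a cut-homeodomain factor, had the highest fold enrichments of the list, 27.8 and 23.0, followed by Dll1, a Notch ligand, with 21.4 and 16.6 over 3133 bp. Neurog3, the bHLH factor that starts endocrine differentiation and is shut off afterwards, was unmarked at its ends and at its start. Cbfa2t3 was unmarked at its ends and marked at a start site.

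The exocrine pancreas was described by lists for its 2 cell types, beside the 55.8% of all protein-coding genes. Of 16 acinar genes, 1 was marked: Bhlha15, a bHLH factor of secretory cells also known as Mist1, at 1267 bp and fold enrichments of 7.80 and 5.10. The digestive enzyme genes Cpa1, Cel, Pnlip, Prss2 and Ctrb1 and the acinar factors Ptf1a and Rbpjl were unmarked. Of 14 duct genes, 8 were marked (57.1%, 95% Wilson interval 32.6 to 78.6%), with a median width of 1540 bp, and 1 was with the 10000 strongest peaks of each list alone. Keratin 8 (Krt8) was the strongest, with fold enrichments of 24.6 and 23.0 over 2239 bp, followed by Prom1 with 13.3 and 10.4 over 2088 bp. Muc1, a mucin of ductal surfaces, had 2219 bp, at a region shared with Thbs3. Onecut1 and Krt7 had 992 and 870 bp. The partner of Krt8, Krt18, had 5.43 and 8.77 over 788 bp, and Epcam had 4.17 and 4.65 over 756 bp. Sox9, Krt19, Cftr, Spp1, Cldn4 and Slc4a4 were unmarked, of which Slc4a4, a bicarbonate transporter, had a region at a start site.

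Of 20 neuronal genes 17 were marked, beside 55.8% of all protein-coding genes. Their median width was 2535 bp and their median fold enrichments were 20.9 and 19.3. The widest were Nefm, a neurofilament subunit, at 5481 bp, Snap25, a SNARE protein of vesicle fusion, at 4571 bp, Celf4 at 4440 bp and the glutamate receptor gene Gria2 at 3359 bp. Stmn2, a regulator of microtubules in growing neurites, had the highest fold enrichments, 37.6 and 30.1, followed by Snap25 with 25.8 and 25.2. The unmarked genes were Rbfox3, which encodes the nuclear marker NeuN, Gad1, the enzyme that makes GABA, and Slc17a6, a vesicular glutamate transporter. Neurons and beta cells are known to share much of the machinery of regulated secretion.

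The remaining lineages had marked shares from 0 to 43.8%, beside the 55.8% of all protein-coding genes. No endothelial gene of 14 was marked at an end, which allows a share of up to 21.4%, and Egfl7 had a region at a start site. Among 16 hepatocyte genes 1 was marked, Apoa2, whose region of 2651 bp also lay at an end of Tomm40l, a gene of the mitochondrial import machinery. Among 20 genes of germ line and pluripotency the marked genes were Gdf9 (2404 bp) and Dazl (561 bp), and Pou5f1, Nanog and Zfp42 were unmarked. Of 18 genes of pituitary and other endocrine glands, Pomc and Cyp11a1 were marked, at 1305 and 642 bp. Cardiac muscle had 2 of 14 marked (Gata6 at 1826 bp and Ryr2 at 1208 bp). Skeletal muscle had 3 of 15 (Mylpf at 3625 bp, Acta1 at 1499 bp and Ckm at 908 bp), and glia had 3 of 14, among them Mbp at 2742 bp and Aldh1l1 at 627 bp.

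Blood and immune genes had 5 of 20 marked, among them Cd68 at 2010 bp, Klf1 at 1690 bp, Cd4 at 1591 bp, Cd14 at 982 bp and Spi1 at 614 bp. The strongest of them were Cd4, a T cell coreceptor, with fold enrichments of 20.4 and 16.0, and Klf1, an erythroid factor, with 16.4 and 17.4. The region at Cd4 also lay at an end of Gpr162, and no RefSeq start site was at hand for Cd4. Mesenchyme had 5 of 16: Snai2 (3076 bp), Vim (1362 bp), Twist2 (1043 bp), Fn1 (990 bp) and Thy1 (550 bp). Epidermis and other epithelia had 7 of 16: Sftpc (3664 bp), Cdx2 (3118 bp), Lgr5 (1866 bp), Krt10 (1794 bp), Lor (1713 bp), Cdh1 (1524 bp) and Foxj1 (1011 bp). The interval of this last share, 23.1 to 66.8%, took in the share of all protein-coding genes. With the 10000 strongest peaks of each list alone, the marked genes were 2 in blood, 1 in mesenchyme and 3 in the epithelia. Of the 39 marked genes of the 12 lists of other lineages, duct cells included, 9 shared the region with another protein-coding gene, and 7 were marked at an end but not at their RefSeq start site. Of the 41 marked genes of the 2 beta cell lists, 1 shared its region (Trpm5, with Cd81 and Tssc4) and 3 were marked at an end but not at their start site (Rfx6, Bach2 and Trpm5). Mylpf, a myosin light chain of fast muscle, shared its region with Tbc1d10b, and Sftpc, a lung surfactant protein, shared its region with Bmp1. Regions were likewise shared by Cd68 with Mpdu1, Foxj1 with Rnf157 and Gdf9 with Uqcrq. Among all marked protein-coding genes, 29.5% shared their region with another one. The median width over the 39 genes was 1524 bp, with median fold enrichments of 8.78 and 8.77, below the 2175 bp, 18.7 and 16.9 of all marked genes. None of the 39 exceeded the 95th percentile of width, beside 4.99% of all marked protein-coding genes. Over so few genes this is close to that share.

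Housekeeping and cell cycle genes were marked almost throughout, beside 55.8% of all protein-coding genes. Among 20 housekeeping genes 19 were marked, with the widest region at Gapdh, a glycolytic enzyme (5141 bp, fold enrichments 19.5 and 18.2). Tbp had 4573 bp and Pgk1 4432 bp. Gapdh shared a region with Iffo1 and Ncapd2, and Tbp shared one with Psmb1. Rab7 and Psmb2 had the highest fold enrichments, 34.2 and 27.2, and 30.5 and 27.3. Ywhaz was unmarked. Of 26 cell cycle genes 24 were marked. The widest were the brakes and the cyclin of the G1 phase: Cdkn1b (7150 bp), Ccnd2 (6007 bp), Trp53 (4887 bp) and Cdkn2a (4656 bp). Trp53 shared a region with Wrap53. The strongest were Rb1, the retinoblastoma gene, with fold enrichments of 32.9 and 26.0, and Mki67, the proliferation antigen Ki-67, with 30.7 and 27.5. Ccnd1 and Cdkn1a were unmarked at their ends, and Cdkn1a had a region at a start site.

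The genes that write, read or erase the mark were themselves marked, 22 of 24, beside 55.8% of all protein-coding genes. Setd1b, a SET1 methyltransferase, lay at a region of 10798 bp that it shared with Rhof, with fold enrichments of 29.2 and 21.6. Kmt2a (MLL1) had 4691 bp with 32.0 and 22.3, followed in width by Ing1 (4440 bp), a reader of the mark, and Hcfc1 (4109 bp). The demethylases Kdm5b and Kdm5a had the highest fold enrichments of the list, 38.2 and 32.2, and 36.3 and 32.0. Kdm5b shared a region with Mgat4e, and Kdm5a shared one with Ccdc77. Cxxc1, which encodes CFP1, had 2136 bp with 27.8 and 24.6. The core subunit genes Ash2l and Dpy30 were unmarked at their ends, and Dpy30 had a region at a start site.

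Across gene families the marked share ran from none to complete. All 46 genes of NADH dehydrogenase and its assembly, and all 13 of RNA polymerase II, were marked, beside 55.8% of all protein-coding genes. Mitochondrial ribosomal proteins had 75 of 78, tRNA synthetases 33 of 35, nuclear pore proteins 19 of 20 and initiation factors of translation 52 of 56. Among the 82 of 85 marked cytosolic ribosomal protein genes the missing ones were Rpl10l, Rpl39l and Rpl32l. Zinc finger genes named Zfp had 310 of 394, and solute carriers, at 213 of 369, stood close to the background.

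At the other end were families of sensory, immune and secreted proteins that are used in a few tissues. Of 1110 olfactory receptor genes 1 was marked (Olfr149, at 302 bp and fold enrichments of 3.68 and 2.73), and of 353 vomeronasal receptor genes 2 were. None of 70 defensins, 22 major urinary proteins or 15 interferons was marked, which allows shares of up to 4.29, 13.6 and 20%. Serpins had 4 of 63, cytochromes P450 15 of 93 and keratins 5 of 53. Families of developmental transcription factors differed in their counts. Unmarked were 38 of 39 Hox genes, 12 of 16 T-box genes, 13 of 19 Sox genes and 8 of 9 Pax genes, the exception being Pax6. By RefSeq start sites, at hand for 7 Pax genes, 2 were marked, Pax6 among them. Close to the background were the forkhead factors with 24 of 44 marked, the LIM, Irx, Zic and related factors with 17 of 31, and the nuclear receptors with 15 of 25. With the 10000 strongest peaks of each list alone, 7 of those 31 were marked.

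**Figure D3:**
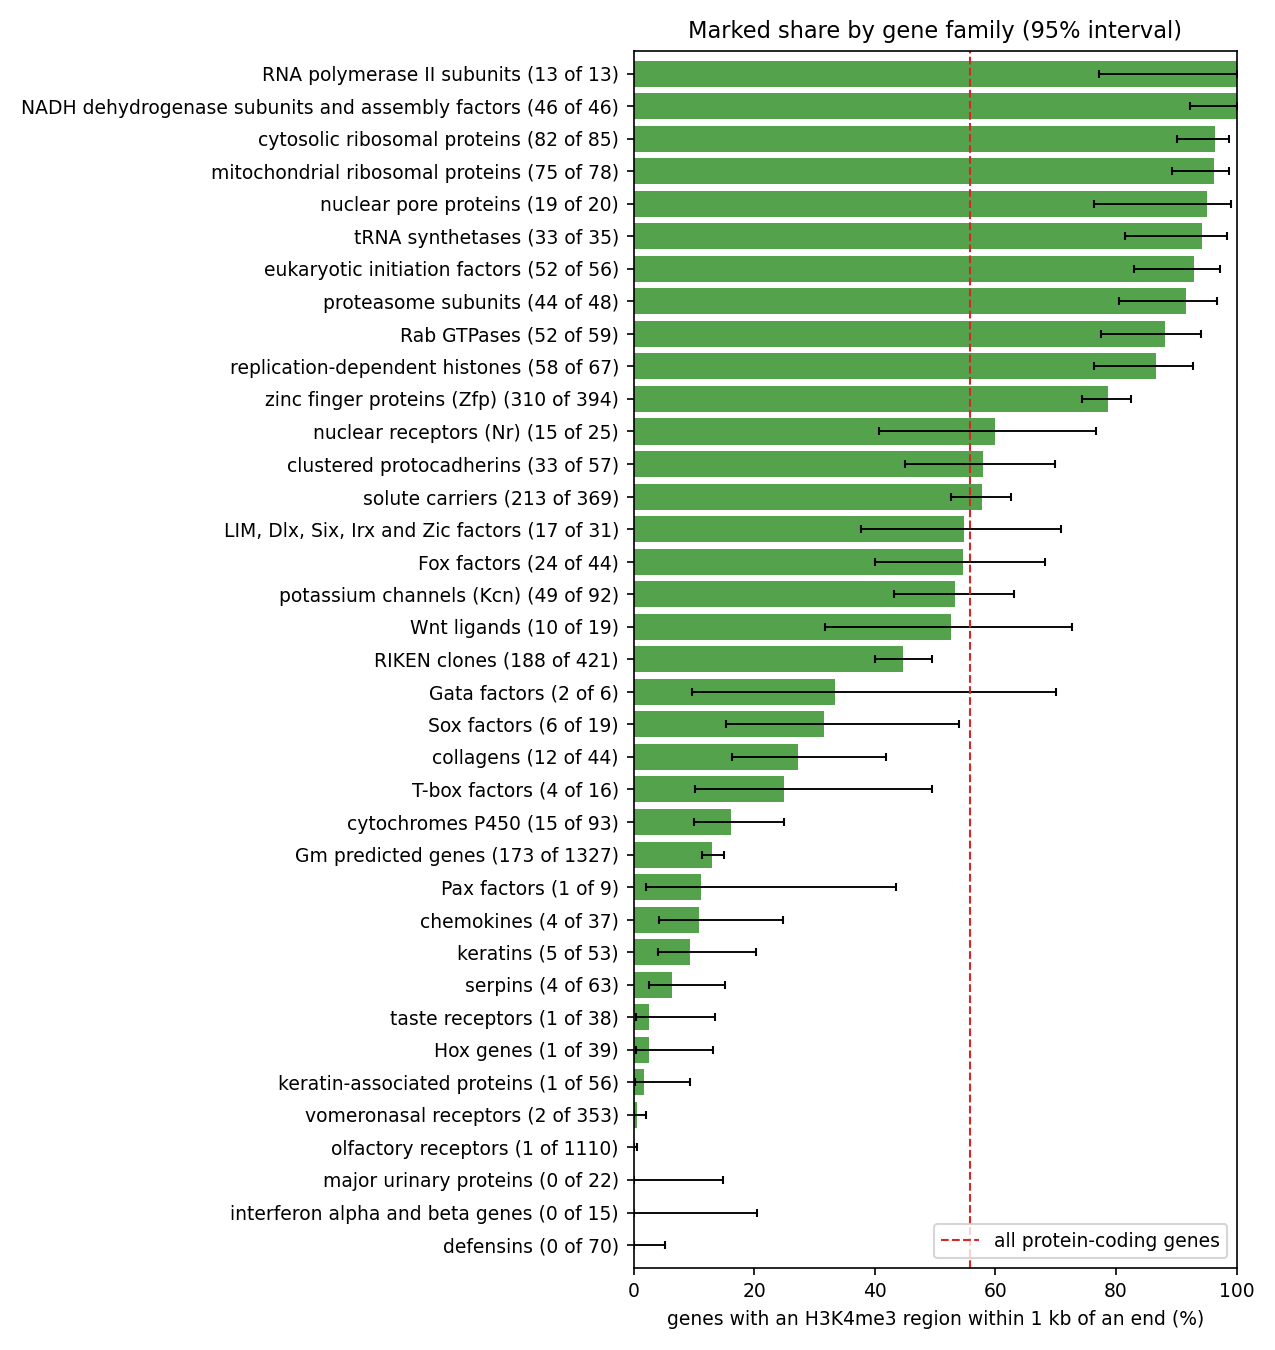
Share of each of 37 gene families, defined by gene symbols, with an H3K4me3 region within 1 kb of a gene end. Bars give the percentage marked, whiskers the 95% Wilson interval (counting error only) and the dashed line the 55.8% of all protein-coding genes. NADH dehydrogenase and RNA polymerase II genes reach 100%, and olfactory receptors stand at 0.0901%.

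In a pair of clustered families the form of the regions differed from that of marked genes as a whole. Of 67 replication-dependent histone genes 58 were marked, beside the 55.8% of all protein-coding genes, with a median width of 3206 bp and median fold enrichments of 8.28 and 8.55. Histone genes were thus wider and weaker than the marked genes as a whole (2175 bp, 18.7 and 16.9). The 9 unmarked histone genes included the germ line members H1f6, H1f7, H1f8, H2ac1 and H2bc1. Of 57 clustered protocadherin genes, which give neurons their surface identity, 33 were marked (57.9%), at a median of 778 bp and fold enrichments of 7.91 and 9.07. With the 10000 strongest peaks of each list alone, 10 histone genes and 6 protocadherin genes were marked. Members of these clusters lie close together and share regions, and the multiply mapping reads of similar copies add a further uncertainty.

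The CpG content of the promoter went with the mark across all genes. It was measured as the observed over expected count of CG dinucleotides in the 300 bases around the RefSeq start, which extend 50 bases past it. Over the 17492 genes cut into 10 equal bins of this ratio, the marked share was 4.85, 9.46 and 17.4% in the 3 lowest bins. It was 31.0, 59.8, 79.3 and 86.9% in the middle bins, and 89.9, 91.2 and 91.5% in the 3 highest. The largest step was that from the fourth to the fifth bin, which spans ratios of 0.413 to 0.576. The single lists gave 4.85 and 5.25% in the lowest bin and 91.6 and 91.8% in the highest. Marked genes had a median ratio of 0.779 and unmarked genes one of 0.208. Region width rose more modestly along the same axis among marked genes, from 1901 bp in the lowest bin through a low of 1619 bp in the fourth to 2569 bp in the highest. These are widths of the widest region at either gene end, which need not cover the start site where CpG was measured.

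**Figure D4:**
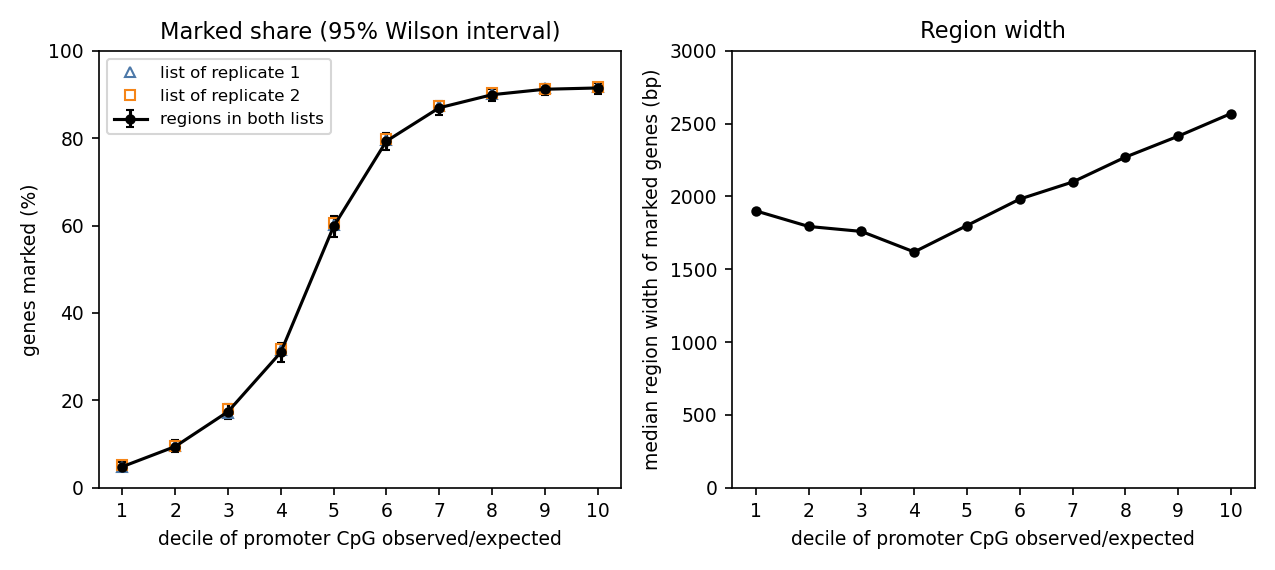
H3K4me3 by promoter CpG content. Left, the percentage of genes marked in each of 10 bins of CpG observed over expected, for regions in both lists (with 95% Wilson intervals) and for each list alone. Right, the median region width of the marked genes in bp. The share climbs from 4.85 to 91.5% while the width goes from 1901 to 2569 bp.

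Some genes departed from this pattern. Of 5249 genes in the 3 lowest bins, 555 were marked at an end. A region covered the start site used for the ratio at only 196 of the 5249, against 4945 of the 5248 genes in the 3 highest bins. Many of the 555 thus had their region elsewhere than over the CpG-poor start. Among the list genes these included the beta cell factors Rfx6, Myt1 and Hnf4a and the secretion genes Iapp, Slc2a2 and Trpm5. At Iapp, whose promoter is printed above with 3 CG dinucleotides, the region reached 4933 bp with fold enrichments of 13.7 and 12.0. Over the 2 beta cell lists, 6 of 9 CpG-poor genes were marked, and over the 12 lists of other lineages 9 of 64 were. Albumin, with a ratio of 0.272 near the 0.274 of Iapp, was unmarked. Of the 9 genes of other lineages, Apoa2, Klf1, Krt8 and Muc1 had a region at their start site and 5 did not, and of the 6 beta cell genes Rfx6 and Trpm5 did not.

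In the 3 highest bins, 479 of 5248 genes were unmarked, and 255 of these had no region at a start site either. Of these 255, 17 belonged to the Hox, Sox, Fox, Pax, T-box, Gata, Wnt and related homeodomain and Zic families (6.67%), and of the 4769 marked genes of these bins 21 did (0.440%). Put the other way, 21 of 39 CpG-rich genes of these developmental families were marked, and 4748 of 5209 other CpG-rich genes were. Twist1, with a ratio of 0.827 and the CpG-rich promoter printed above, was of this unmarked kind, although it lay outside those families.

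Short sequence matches in the same 300 bases, read on both strands, were counted as a description. GGGCGG, a core that SP1 binds, occurred in 46.3% of all promoters, in 67.5% of marked and in 19.2% of unmarked ones. CCGGAAG, an ETS core, occurred in 11.9% of all, 18.4% of marked and 3.55% of unmarked promoters. The NRF1 match GCATGCGC occurred in 3.61% of all, 5.67% of marked and 0.965% of unmarked promoters, and the CRE match TGACGTCA in 2.34, 3.46 and 0.912%. TATAAA went the other way, with 13.3% of all, 6.31% of marked and 22.3% of unmarked promoters. CCAAT occurred in 39.0% of all promoters and differed little, 38.9 against 39.2%. The promoters with the SP1, ETS, NRF1 and CRE matches had median CpG ratios of 0.786, 0.813, 0.851 and 0.824, against 0.231 for those with the TATA match. The part of CpG content in these shares was not tested.

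The regions were not centred on the start site. At the 9517 start sites covered by a region, out of 17492, the peak reached a median of 685 bp upstream and 1286 bp downstream in replicate 1, and 695 and 1303 bp in replicate 2. Downstream exceeded upstream at 80.8 and 80.7% of sites, by a median of 581 and 587 bp. The summit lay at a median of 216 and 214 bp past the start, downstream of it at 85.1 and 84.5% of sites. It fell between 100 and 400 bp past the start at 63.8 and 61.7%. The first nucleosomes of transcribed genes are known to lie just past the start. Few summits, 5.05 and 5.18%, lay in the first 100 bp.

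Start sites that face a divergent neighbour gave a different profile. At 1905 sites with an opposed start within 1000 bp, the peak reached 1234 and 1241 bp upstream and 1244 and 1255 bp downstream, a median difference of 45 and 51 bp. At the 7612 other sites the upstream reach was 601.5 and 608 bp and the downstream reach 1296.5 and 1317 bp, a difference of 681 and 689 bp. Downstream reach was thus close in both kinds and upstream reach differed. Summits of divergent sites fell on either side, 62.8 and 62.0% downstream, against 90.7 and 90.2% at other sites. Both starts of a pair can lie under the same region, whose extent and summit were then counted from each side. The even reach and the split summits are thus in part built into the counting, and the 1905 sites are not all separate regions. Divergent regions were also wider, at a median of 2634 against 2070 bp.

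**Figure D5:**
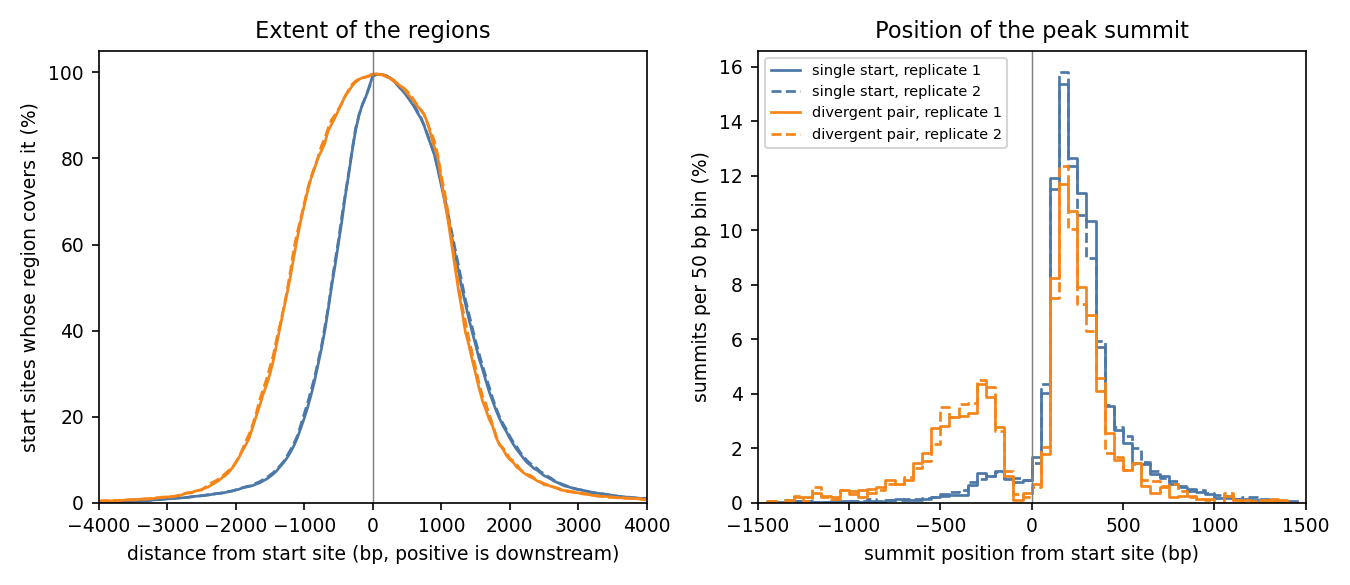
Form of the regions around start sites. Left, the percentage of covered start sites whose peak reaches each distance. Right, the percentage of summits in each 50 bp bin. Solid lines are replicate 1, dashed lines replicate 2, blue the 7612 sites without and orange the 1905 sites with a divergent neighbour within 1000 bp. Blue curves lean downstream with 1 main summit mode, highest from 150 to 200 bp, and only a slight rise upstream. Orange curves are even on both sides with a clear second mode upstream. Paired starts under the same region count it from both sides, which makes the orange curves more even.

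CpG-poor start sites, of the 3 lowest bins, had the largest median excess of downstream over upstream reach. At 196 such sites the upstream reach was 253 and 274.5 bp and the downstream reach 1180.5 and 1141.5 bp, a median difference of 918 and 908.5 bp. At 4945 CpG-rich sites, of the 3 highest bins, the reach was 838 and 845 bp upstream and 1370 and 1391 bp downstream, a median difference of 542 and 547 bp. The difference between the kinds lay more in the upstream than in the downstream reach. Summits did not lean further at CpG-poor sites, with 88.3 and 86.2% downstream against 90.7 and 90.2% at sites without a divergent neighbour. Sites with such a neighbour were not set apart in either CpG group. Across the 9517 sites upstream and downstream reach were only weakly related, with Spearman correlations of 0.187 and 0.175, while each reach agreed between libraries with 0.974 and 0.974.

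Noncoding classes differed in their marked share. Over all RefSeq classes 30.8% of 49943 genes were marked. Among lncRNA genes the share was 18.3% (2323 of 12727), and 745 of those 2323 lay at regions without a protein-coding end. At these 745 the median width was 1463 bp, with fold enrichments of 9.10 and 9.25. Of 408 tRNA genes 200 were marked (49.0%, 95% Wilson interval 44.2 to 53.9%), and 15.9% were with the 10000 strongest peaks of each list alone. Of these, 139 lay at 87 regions without a coding end, and these 139 genes had a median width of 1941 bp and median fold enrichments of 9.0 and 8.92. At tRNA genes, as at histone genes, the fold enrichments were thus below the 18.7 and 16.9 of marked protein-coding genes. Pseudogenes were marked at 1.54% (153 of 9944), and at 5.91% with a window of 5 kb or 0.895% with the strongest peaks alone. None of 510 segments of immunoglobulin and T cell receptor genes was marked, which allows a share of up to 0.588%.

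The microRNA genes were marked at 15.3% (188 of 1228), and 58 of the 188 lay at regions without a coding end. A list of 25 miRNA genes with known tissues was drawn up after values had been seen, and its counts describe only these. Among 4 islet miRNA genes 3 were marked, among 8 of neurons and islets 8, among 3 of epithelia 2, and among 10 of other tissues none, which allows a share of up to 30%. The mature sequences below are those of marked islet and neuronal genes, followed by those of unmarked genes of muscle (miR-206), blood (miR-142a, miR-223) and acinar pancreas (miR-216a, miR-217), with the seed, bases 2 to 8, in capitals.
miR-7a-5p: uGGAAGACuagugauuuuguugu
miR-7b-5p: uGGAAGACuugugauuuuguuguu
miR-9-5p: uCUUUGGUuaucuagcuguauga
miR-132-3p: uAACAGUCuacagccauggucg
miR-212-3p: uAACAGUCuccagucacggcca
miR-206-3p: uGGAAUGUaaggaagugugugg
miR-142a-5p: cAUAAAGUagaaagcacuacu
miR-223-3p: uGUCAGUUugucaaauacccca
miR-216a-5p: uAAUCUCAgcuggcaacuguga
miR-217-5p: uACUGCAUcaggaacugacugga
The seed GGAAGAC is shared by miR-7a and miR-7b, and AACAGUC by miR-132 and miR-212. These sequences are from RefSeq on GRCm38.

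The marked islet miRNA genes had fold enrichments close to the medians of all marked miRNA genes, 19 and 17. Mir7-2 lay at a region of 7068 bp, chr7:78881356-78888423, with no coding gene end and fold enrichments of 18.3 and 17.0. Mir7b had 2488 bp with 18.4 and 16.3, while Mir7-1, which gives the same miR-7a from within a host gene, was unmarked. Mir375, an abundant islet miRNA gene, lay at a region of 3733 bp with 21.0 and 19.2, which also held an end of Cryba2 and of Cfap65. Mir132 and Mir212 shared a region of 2342 bp with 14.4 and 11.9. The 3 Mir9 genes had narrower and weaker regions, of 1193, 1512 and 706 bp with fold enrichments from 4.56 to 6.97. Among the Mir124a genes, Mir124a-1 had 4365 bp with 21.9 and 18, Mir124a-2 had 2139 bp with 16.1 and 16.7, and Mir124a-3 had 1603 bp with 4.72 and 6.34.

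By chromosome, the marked share of protein-coding genes lay between 45.4% (chromosome 7) and 66.6% (chromosome 12) on the autosomes. Chromosome 7 carries 417 olfactory and vomeronasal receptor genes, and without them its share was 57.1%. The X chromosome stood below every autosome at 40.9% of 966 genes, and at 41.2% without receptors. Of 256 genes on the Y chromosome none was marked, which allows a share of up to 1.17%. Among them were Ddx3y, Kdm5d, Uty and Eif2s3y, whose X partners Ddx3x, Kdm5c, Kdm6a and Eif2s3x were marked with regions of 2151 to 3905 bp, and also Zfy1 and Sry. On the Y sequence 2 regions were placed near its far end, at chrY:90800121-90800521 (401 bp) and chrY:90807054-90807550 (497 bp). Whether their reads also fit other places in the genome was not tested. The presence of a Y chromosome in these cells was not tested either, so an unmarked Y gene cannot be told from a missing one. Xist and Tsix, the RNA genes of X inactivation, were unmarked, while Ftx and Jpx at the same locus were marked with 3700 and 2527 bp.

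Of 32 imprinted genes, which are used from the maternal or paternal copy alone, 18 were marked (56.25%, 95% Wilson interval 39.3 to 71.8%). This was close to the 55.8% of all protein-coding genes, although the list also holds noncoding genes. Igf2, the fetal insulin-like growth factor next to Ins2, had 14830 bp in replicate 1 and 14939 bp in replicate 2, with fold enrichments of 26.6 and 20.8, and was the widest of the list. Peg13 followed with 6550 bp, Peg3 with 5246 bp and Zrsr1 with 5239 bp. Peg3 shared a region with Usp29. Ube3a and Plagl1 were the strongest, with 29.9 and 23.3, and 29.2 and 23.1. H19, the noncoding neighbour of Igf2, was unmarked. In the Dlk1 and Meg3 cluster, Meg3 was marked with 2428 bp and 7.79 and 7.43, and Dlk1, Rian and Mirg were unmarked. Snrpn and Mest were unmarked at their ends and had a region at a start site.

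Over all protein-coding genes, the 10 genes with the widest regions were Pax6, Ero1b, Igf2, Cdkn2c, Isl1, Foxa2, Pdx1, Rhof and Setd1b (at 1 region), and Etv1, with widths from 22268 to 10698 bp. Cdkn2c, a brake on the G1 kinases CDK4 and CDK6, had 13844 and 14586 bp with fold enrichments of 25.3 and 22.1. The 10 genes ranked highest by fold enrichment over both lists were Hgsnat, Rcor1, Mapre3, Coro1b, Tm9sf2, Dnajc3, Epb41l2, Zfp710, Desi2 and Dym. Hgsnat, a lysosomal enzyme, had 76.1 and 59.3 over 1961 bp, and Rcor1, a corepressor that works with the demethylase LSD1, had 67.1 and 46.3 over 3853 bp. Their widths ran from 965 to 4442 bp, so no gene stood in both groups. The largest log2 ratios of fold enrichment between replicates, in either direction, were at Lpar6 (2.65 and 7.86), Oaf (22.8 and 8.54), Clcn2 with Polr2h (20.5 and 7.74) and Rhoj (4.18 and 10.5). Over all regions the log2 ratio of replicate 1 to replicate 2 had a median of 0.10, with a 5th percentile of -0.46 and a 95th of 0.53.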

How the data were processed

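CUT&RUN peak lists of 2 H3K4me3 libraries from MIN6 cells were analysed. Peaks were called by the authors with MACS2 on GRCm38/mm10, per the submitters' processing notes. The MACS2 version, the aligner, the control library and the treatment of duplicates and of multiply mapping reads are not given in the sources used here. Fold enrichment, as deposited, is a ratio taken at the summit, and the deposited −log10 p-value and −log10 q-value columns and the deposited score belong to the same peak. The lowest −log10 q was 2.04 and 2.01, and the score was not used. Read totals are not part of a peak list, and the fragments behind each value were not computed. The MafA lists were used only for counts of peaks.

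Gene spans, start sites and sequences were RefSeq's, on GRCm38.p6. A gene took its widest region for width and its strongest for fold enrichment. Motif and CpG measures used the first start site listed for a gene. Intervals are 95% Wilson intervals, and limits for a count of 0 use 3 counts; both cover counting error only. The work used pandas 2.3.3 and networkx 3.6.1 under Python 3.11.15, with scipy 1.17.1 for correlations, numpy 2.4.6, and matplotlib 3.10.9 for plots. Region building and gene assignment were tested on simulated data: 100% of 2341 planted regions were recovered, with 0 mismatches at 400 genes checked by exhaustive search.

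There were 23 lists with 415 entries and 37 families. In each list the rule named the fewer of the marked or unmarked genes (up to 12), the 4 widest and the 2 strongest. It also named the 10 widest and 10 strongest protein-coding genes and the 5 with the largest difference between replicates. Other list genes named in the text, the 5 promoters printed, the CpG exceptions and the miRNA list were chosen after their values were seen. The members and lists were chosen with earlier results of these data known. A few genes that the rule named are not reported here.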

Additional observations from a re-analysis of the deposited data

How the results depend on the processing

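No paired analysis was possible because the replicates belong to 1 group with no contrast. With each replicate left out, a single list gave 16020 to 16904 regions, a median width of 1674 to 1716 bp, 2078 to 2094 bp at protein-coding genes, 72.6 to 75.1% of regions at a gene end, 56.0 to 56.3% of protein-coding and 18.5 to 18.8% of lncRNA genes marked, and a downstream excess of 578 to 583 bp. The 10000 strongest peaks of each list gave 9525 regions, 2268 bp, 2363 bp, 89.8%, 43.6%, 11.9% and 652 bp in the same order, and a difference in marked share between the highest and lowest CpG bins of 80.3 percentage points, against 86.6. A −log10 q of at least 5 gave a width of 1871 bp and shares of 55.3% of protein-coding and 17.9% of lncRNA genes, and 50% reciprocal overlap gave 55.4 and 18%, with a CpG difference of 86.4 points. Merging peaks within 1 kb gave a width of 1883 bp. A window of 500 bp gave 74.0% of regions, 54.2% of protein-coding genes, 16.9% of lncRNA genes and 85.9 points, and one of 5 kb gave 85.9%, 60.8%, 24.5% and 85.6 points. Start sites alone gave 57.6%, 17.5% and 92.2 points. Without olfactory and vomeronasal receptor genes, an alternative added after seeing the data, 59.8% of protein-coding genes were marked. The cause of these shifts was not tested. Of the 184 list counts under 8 alternatives, 155 stayed within 1.5 times and 29 moved further, and of 296 family counts 263 and 33. Of those that moved, 11 lists and 17 families did so with the strongest peaks alone, and 11 lists and 8 families with start sites, which are known for fewer genes. Leaving out replicate 1 took the hepatocyte list from 1 to 2 marked genes. All of the shares depend on which peaks the authors' threshold let through, and weak marks below it are not seen.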
